A study of Mus musculus with 4 samples.

Results

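The genes described here are the DNA replication machinery: 47 genes for the factors that license origins, unwind and copy DNA, load the sliding clamp, join the copied fragments, restore chromatin and supply nucleotides. They were taken by symbol from the table of raw read counts per gene, and all 47 were found among its 35976 gene rows. All 47 also passed the filter on low counts, which left 16209 genes for testing. The data came from 4 mRNA sequencing libraries of mouse E14 embryonic stem cells, strain 12910la in the labels. In 2 libraries the labels give the genotype as knocked down, and Lx8-SINE B2, an RNA whose name joins the repeat names Lx8 and SINE B2, was the target of a short hairpin RNA. The other 2 libraries were controls labelled wild type. No row of the count table carries the name of the target, so the knockdown itself was not checked here. All cells were kept feeder-free on gelatin-coated dishes, with serum and the cytokine LIF, which holds such cells undifferentiated. The protocol attached to all libraries describes transfection with a pSuper puro plasmid, which carries the hairpin and puromycin resistance, and then 3 days of puromycin at 1 μg per ml. It does not say which plasmid the control cells received.

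Replication starts at origins bound by ORC, the origin recognition complex, which with CDC6 and CDT1 loads the ring-shaped MCM2-7 helicase before S phase. CDC45 and the GINS complex then join the ring to form the active CMG helicase, and primase, 3 polymerases, the clamp PCNA and the single-strand binder RPA follow it. Many of these genes are known targets of E2F, the factor family that turns on S phase genes, and mouse embryonic stem cells are known for fast cycles in which a large share of cells is in S phase.

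The promoters show what these genes share in sequence. RefSeq promoters of build GRCm38.p6, which run from 250 bases before to 50 bases after a transcript start, were held for 38 of the 47 genes. The E2F motif was searched as TTTCCCGC, TTTGGCGC, TTTCGCGC or TTTGCCGC on either strand, and 14 of the 38 genes (36.8%) had a match. It was found in 4.46% of 11839 tested genes with a promoter and in 2.6% of all 27025 genes with one. The CCAAT box, searched as CCAAT on either strand, was found in 24 of the 38 genes (63.2%), against 43.1% of tested genes and 41.1% of all genes. TTTGAA, the CHR element of cell cycle genes, was found in 5 of the 38 (13.2%), against 14.5% of tested genes and 20.2% of all genes.

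The promoters of 5 genes are given here as the 150 bases just before the transcript start of the RefSeq table, on the gene's own strand, with matches to any of the searched motifs in capitals. For Orc1 and Pola1 that start lies inside the gene's RefSeq bounds, which begin at 108575705 for Orc1 and end at 93632387 for Pola1. Pold2 and Chaf1b are shown because they were the 2 genes that passed the test. Mcm6, Orc1 and Pola1 are shown as 3 of the 5 members with an E2F motif and a CCAAT box in this stretch. The other two, Mcm5 and Gins3, are not printed, and the 3 shown have the lowest log2 fold changes of the 5.
Pold2 (chr11:5878257-5878406, minus strand): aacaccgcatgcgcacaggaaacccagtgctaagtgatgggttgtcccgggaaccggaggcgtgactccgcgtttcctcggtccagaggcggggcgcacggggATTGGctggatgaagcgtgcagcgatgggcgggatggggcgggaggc
Chaf1b (chr16:93883751-93883900, plus strand): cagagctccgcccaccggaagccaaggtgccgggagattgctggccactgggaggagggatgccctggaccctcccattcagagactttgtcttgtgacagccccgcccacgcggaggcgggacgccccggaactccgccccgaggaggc
Mcm6 (chr1:128359706-128359855, minus strand): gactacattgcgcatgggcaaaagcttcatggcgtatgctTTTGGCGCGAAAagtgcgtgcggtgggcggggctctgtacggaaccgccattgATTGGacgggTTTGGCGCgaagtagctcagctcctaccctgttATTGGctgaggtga
Orc1 (chr4:108579304-108579453, plus strand): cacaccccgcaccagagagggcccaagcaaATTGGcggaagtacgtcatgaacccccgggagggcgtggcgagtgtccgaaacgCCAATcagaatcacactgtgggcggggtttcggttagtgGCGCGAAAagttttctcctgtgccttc
Pola1 (chrX:93632156-93632305, minus strand): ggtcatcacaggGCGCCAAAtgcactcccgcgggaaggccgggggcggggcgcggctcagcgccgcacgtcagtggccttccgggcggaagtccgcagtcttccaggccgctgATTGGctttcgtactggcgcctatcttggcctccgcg
The Mcm6 stretch held 3 E2F matches, of which 2 overlap, and 2 CCAAT boxes on the reverse strand. The Pold2 stretch held 1 reverse CCAAT box, and the Chaf1b stretch held no match. A second RefSeq promoter of Pold2 is not printed.

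Total counts were 18592224 and 16383323 in the knockdown libraries and 19867689 and 19044832 in the controls, and the 47 genes took 0.762% and 0.671% of them in the knockdown libraries and 0.959% and 0.860% in the controls. All 8 embryonic stem cell markers checked were expressed and none was called, and their summed level was 4820 and 5281 CPM (counts scaled to a common library size, with TMM factors, edgeR's trimmed mean of M-values) in the knockdown libraries against 6387 and 5714 CPM in the controls. Of the 8, Dppa5a alone had groups that did not overlap, at 664 and 1021 CPM in the knockdown libraries and 1437 and 1446 CPM in the controls. The 10 fibroblast markers summed to 15.0 and 15.8 CPM in the knockdown libraries and to 18.3 and 21.8 CPM in the controls, with Lum and Postn at 0 in every library. Only 4 of the 10 passed the filter on low counts and were tested, and none of the 4 was called. Thy1, however, was at 2.88 and 5.53 CPM in the knockdown libraries and 13.3 and 12.9 CPM in the controls. Pdgfra was at 9.0 and 7.54 CPM in the knockdown libraries and 2.64 and 4.93 CPM in the controls. Their part in the results was not tested. Only the knockdown titles carry the word batch, and an effect of batch therefore cannot be told apart from the knockdown. The labels name no separate cultures behind the libraries, and each p-value then reflects the spread of these libraries, possibly a technical one.

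Most genes of the replication machinery had a lower mean level in the knockdown cells, and the difference passed the test in 2 of them. Pold2, the second subunit of DNA polymerase delta, fell 2.63-fold, and Chaf1b, the middle subunit of chromatin assembly factor 1, fell 2.17-fold. Of the 47 genes 45 had a log2 fold change below 0, knockdown over control, and the median was -0.37. The exceptions were Prim2, at 0.15, and Fen1, at 0.02. The count below 0 was 46 with RLE or upper quartile scaling and 42 with library totals only. Over all 16209 tested genes 49.5% were below 0, and the median was 0.01. In bulk RNA, fewer cells in S phase and less of these transcripts per cell cannot be told apart.

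A gene was called at a Benjamini-Hochberg adjusted p below 0.05 in edgeR's quasi-likelihood test. By this rule 2 of 47 members (4.26%) were called lower, where the background over all tested genes was 0.555%. None was called higher, where the background was 0.876%. At an unadjusted p below 0.05, 19 members (40.4%) were lower, against 8.58% of all tested genes, and 0 were higher, against 11%. DESeq2 called 9 members lower, where its background over all genes was 3.24%, and 0 higher, where it was 3.99%. With limma-voom 2 were called lower, against 0.561% of all tested genes, and 0 higher, against 0.925%. Both knockdown libraries lay below both controls in 30 members (63.8%), against 24.6% of all tested genes, and above both in 0, against 27.3%. These shares over all tested genes are also the background for the counts by complex given below.

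The same shares were taken over genes of like abundance, as a description. Of 8556 tested genes within the members' range of mean level, 3.80 to 9.44 on the log2 CPM scale, 51.3% had a log2 fold change below 0, 0.818% were called lower and 26.0% had both knockdown libraries below both controls. For the members these shares were 95.7%, 4.26% and 63.8%. Between 8 and 10, where the MCM subunit genes lie, the median log2 fold change of 603 tested genes was -0.07, and that of the 10 members was -0.40.

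**Figure D1:**
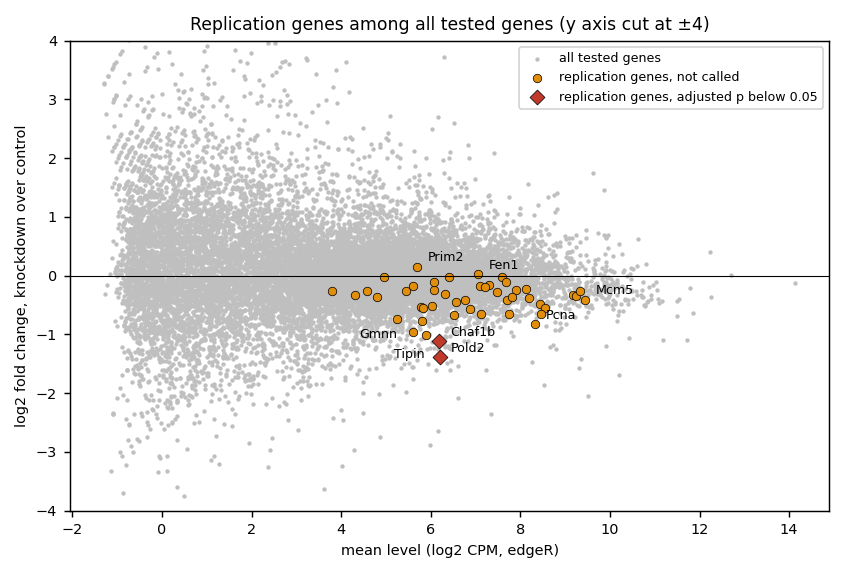
Log2 fold change, knockdown over control, against mean level (log2 CPM) for all 16209 tested genes in grey and the 47 replication genes in colour. The replication genes sit between -1.39 and 0.15, and 45 lie below 0, while the grey points lie on both sides; 21 grey points are beyond the axis limits.

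**Figure D2:**
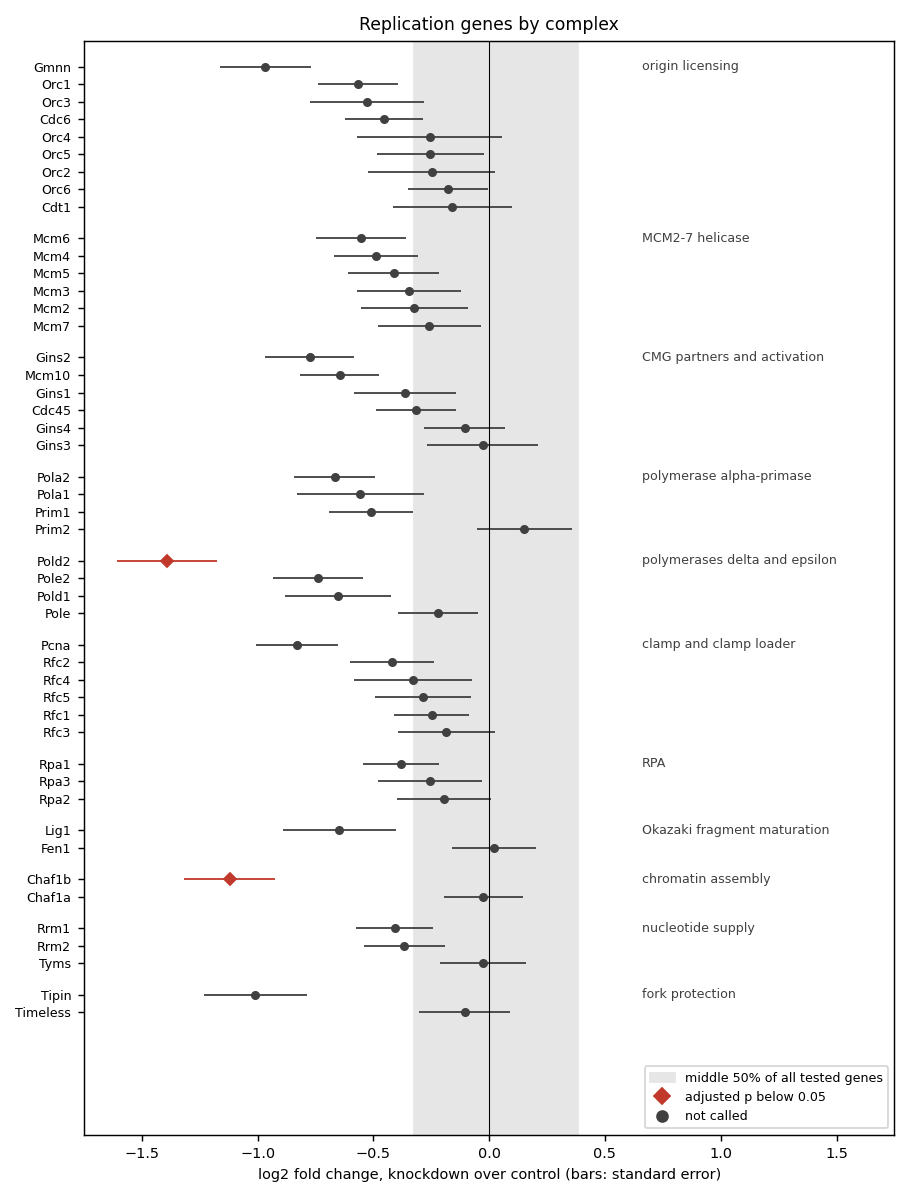
Log2 fold change of each replication gene by complex, with bars for the standard error from the edgeR fit and a grey band from -0.32 to 0.38 for the middle 50% of all tested genes. Pold2 and Chaf1b, drawn as red diamonds, are the 2 called genes.

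The libraries did not weigh equally in this picture. The summed level of the 47 genes was 7409 and 6688 CPM in the knockdown libraries and 10070 and 8498 CPM in the controls, so both knockdown libraries were below both controls and control replicate 1 was the highest. The mean of the sum was 7049 ± 510 CPM in the knockdown libraries and 9283 ± 1111 CPM in the controls (SD, n = 2 each), a level 24.1% lower in the knockdown. In 28 of the 47 genes control replicate 1 was above control replicate 2, against 49.8% of all tested genes. Knockdown replicate 1 was above knockdown replicate 2 in 32 of the 47. The share of all tested genes for that pair was not taken. The median log2 fold change of the members was -0.34 without control replicate 1 and -0.52 without control replicate 2, and it was -0.42 and -0.33 without knockdown replicates 1 and 2. Without control replicate 1, 39 of the 47 remained below 0.

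**Figure D3:**
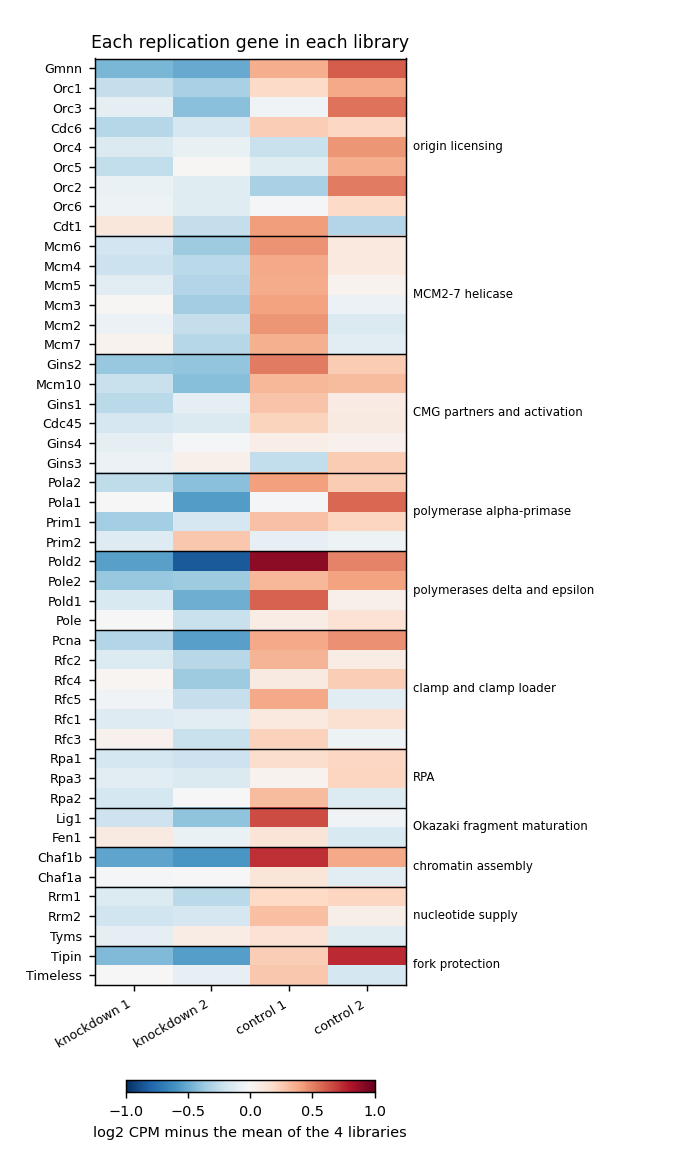
Each replication gene in each library as log2 CPM minus the mean of its 4 libraries, with blue for low and red for high, in rows grouped by complex. The knockdown columns are mostly blue and the control columns mostly red, and control replicate 1 is redder than control replicate 2 for the 6 MCM2-7 genes.

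Origin licensing came first in the order of events. All 9 genes here were below 0 and 0 were called, and the median log2 fold change was -0.26, or -0.55 without control replicate 1. DESeq2 called 1 of them and limma-voom 0, and 3 passed an unadjusted p of 0.05. Gmnn encodes geminin, the inhibitor that binds CDT1 and blocks a second round of licensing, and lies on chromosome 13 from 24751845 to 24761937. It was at 33.6 and 32.6 CPM in the knockdown libraries and at 59.3 and 70.1 CPM in the controls. Both knockdown libraries were thus well below both controls. The log2 fold change was -0.97 (SE, the standard error, 0.20), and edgeR's adjusted p of 0.0561 missed the threshold. It was called by DESeq2 (adjusted p = 0.00251) and without control replicate 1 (edgeR adjusted p = 0.0343), and edgeR's adjusted p was 0.16 and 0.25 without knockdown replicates 1 and 2.

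Cdt1, the loader that geminin inhibits, was at 166 and 131 CPM in the knockdown libraries and at 206 and 126 CPM in the controls. The groups overlapped, because control replicate 2 was the lowest library and control replicate 1 the highest. Cdc6, the ATPase that loads MCM rings together with CDT1, was at 76.2 and 82.9 CPM in the knockdown libraries and at 110 and 107 CPM in the controls. The groups did not overlap, and the log2 fold change of -0.45 (SE 0.17) did not pass (edgeR adjusted p = 0.195).

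Among the ORC subunits, Orc1, the ATPase subunit that comes and goes with the cell cycle in mammals, was at 97.2 and 91.5 CPM in the knockdown libraries and at 131 and 149 CPM in the controls. The groups did not overlap, and the log2 fold change of -0.57 (SE 0.17) missed the threshold (edgeR adjusted p = 0.128). Orc3 had a log2 fold change of -0.53 (SE 0.25), or -0.26 without control replicate 2. Orc2, Orc4, Orc5 and Orc6 lay between -0.26 and -0.18, with standard errors of 0.17 to 0.31. In Orc2, Orc3, Orc4 and Orc5 control replicate 2 was well above control replicate 1, opposite to the MCM genes. Without control replicate 2, Orc2 and Orc4 had log2 fold changes of 0.18 and 0.06, so their values rest on that library.

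The MCM2-7 genes, which encode the 6 subunits of the ring, were all below 0, at -0.55 for Mcm6, -0.49 for Mcm4, -0.41 for Mcm5, -0.35 for Mcm3, -0.32 for Mcm2 and -0.26 for Mcm7, with standard errors of 0.18 to 0.23. None was called by edgeR, DESeq2 or limma-voom, and 2 of 6 passed an unadjusted p of 0.05. Together they held 3045 and 2601 CPM in the knockdown libraries and 4203 and 3132 CPM in the controls. Control replicate 2 was only just above knockdown replicate 1, while control replicate 1 stood apart. The median of -0.38 over the 6 was -0.17 without control replicate 1 and -0.63 without control replicate 2.

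Mcm6 was at 321 and 288 CPM in the knockdown libraries and at 501 and 392.4 CPM in the controls. Mcm4 was at 293 and 282 CPM in the knockdown libraries and at 443 and 364 CPM in the controls. In these genes and in Mcm5 the groups did not overlap. Without control replicate 1, Mcm6 and Mcm5 were at -0.37 and -0.24. Mcm2 was at 550 and 483 CPM in the knockdown libraries and at 777 and 515 CPM in the controls. In Mcm2, Mcm3 and Mcm7 control replicate 2 lay between the knockdown libraries, and without control replicate 1 their log2 fold changes were 0.00, -0.10 and -0.01.

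For the CMG partners and Mcm10, 6 genes, the median was -0.34 on the log2 scale. None was called by edgeR, DESeq2 called 2, limma-voom called 0 and 2 passed an unadjusted p of 0.05. Gins2, a subunit of the GINS complex, was at 41.6 and 41.2 CPM in the knockdown libraries and at 77.5 and 64.3 CPM in the controls. The knockdown libraries agreed closely and lay below both controls, with a log2 fold change of -0.78 (SE 0.19, edgeR adjusted p = 0.0867). Gins2 shares 2758 bases of exon with Gse1 on the opposite strand, and the strand setting of the counts is not given in the sources used here, so its count is uncertain. Mcm10, which helps to activate the loaded helicase, was at 178 and 155 CPM in the knockdown libraries and at 261 and 259 CPM in the controls (log2 fold change -0.64, SE 0.17, edgeR adjusted p = 0.0985). Cdc45 and Gins1 were at -0.32 and -0.37, and Gins4 and Gins3 at -0.11 and -0.03. The GINS genes thus held both one of the lower values and some of those nearest to 0.

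Polymerase alpha and primase, which make the RNA-DNA primer, comprised 4 genes with a median log2 fold change of -0.53, of which 0 were called by edgeR, 1 by DESeq2 and 0 by limma-voom, and 2 at an unadjusted p below 0.05. Pola2, the accessory subunit, was at 74.9 and 66.8 CPM in the knockdown libraries and at 119 and 106 CPM in the controls, a log2 fold change of -0.67 (SE 0.18, edgeR adjusted p = 0.0973). Prim1, the catalytic primase subunit, was at 50.9 and 57.3 CPM in the knockdown libraries and at 79.0 and 74.9 CPM in the controls. Neither gene's groups overlapped. Prim2, the regulatory primase subunit, was at 47.0 and 61.8 CPM in the knockdown libraries and at 48.5 and 49.5 CPM in the controls. Its knockdown libraries lay on either side of the controls, and the log2 fold change of 0.15 was -0.06 without knockdown replicate 2. Pola1, the catalytic polymerase subunit, had a log2 fold change of -0.56 (SE 0.27) with overlapping groups. It was -0.87 and -0.30 without knockdown replicates 1 and 2 and -0.28 without control replicate 2.

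The replicative polymerases delta and epsilon had the lowest median of the 11 classes, -0.70 over 4 genes. In all 4 both knockdown libraries lay below both controls. The second list described below held the other subunits of these enzymes. Their log2 fold changes were -0.50 for Pold3, -0.30 for Pold4, 0.31 for Pole3 and 0.09 for Pole4, and none was called by edgeR. For Pole3 both knockdown libraries lay above both controls. Pold2, on chromosome 11 from 5872180 to 5878256 in GRCm38.p6, the same build as mm10, was at 44.7 and 36.4 CPM in the knockdown libraries and at 121 and 91.9 CPM in the controls. The highest knockdown library was thus below 50 CPM and the lowest control above 90. The mean was 40.5 ± 5.89 CPM in the knockdown and 106 ± 20.6 CPM in the controls (SD, n = 2 each). The log2 fold change was -1.39 (SE 0.22), and edgeR's adjusted p was 0.0309. The call was lost without knockdown replicate 2, where the log2 fold change was -1.25 (edgeR adjusted p = 0.0931). Over the fits that left out 1 library the value ranged from -1.63 to -1.18, and DESeq2 gave -1.43 (adjusted p = 9.48e-06).

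Pold1, the catalytic subunit of polymerase delta, was at 121 and 95.5 CPM in the knockdown libraries and at 202 and 139 CPM in the controls, a log2 fold change of -0.65 (SE 0.23, edgeR adjusted p = 0.171), or -0.36 without control replicate 1. Pole2, the second subunit of polymerase epsilon, was at 28.2 and 28.7 CPM in the knockdown libraries and at 46.3 and 48.7 CPM in the controls. Libraries of a group lay close together here, and the log2 fold change of -0.74 (SE 0.19) had an edgeR adjusted p of 0.0973. Pole, the catalytic subunit of epsilon, had a log2 fold change of -0.22 (SE 0.17).

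**Figure D4:**
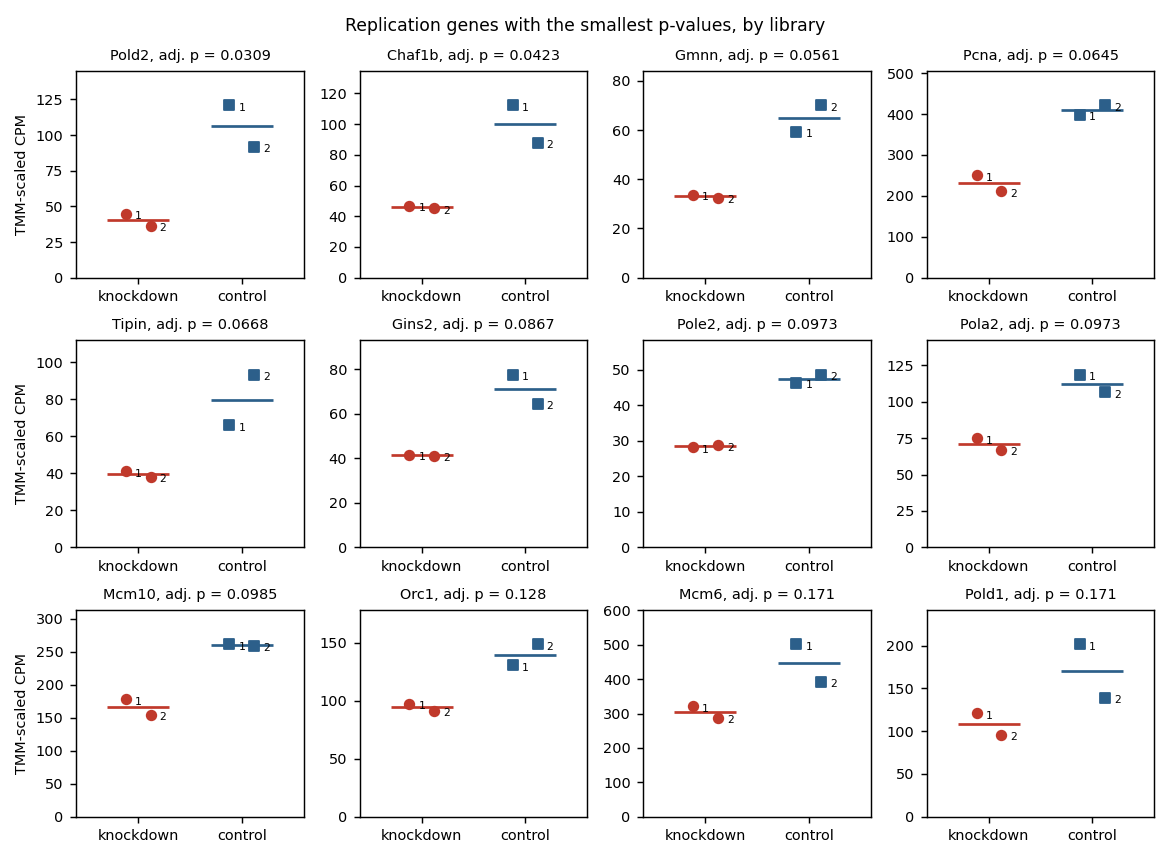
TMM-scaled CPM of the 12 replication genes with the smallest p-values, with knockdown libraries as red circles, controls as blue squares, replicate numbers beside them and lines for the group means. The genes were picked by p, and the adjusted p is below 0.05 for Pold2 and Chaf1b only.

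At the sliding clamp, Pcna, which encodes the ring that holds the polymerases on DNA, was at 250.5 and 211 CPM in the knockdown libraries and at 398 and 422 CPM in the controls. Its libraries formed separate groups, with a log2 fold change of -0.83 (SE 0.18), and edgeR's adjusted p of 0.0645 missed the threshold. It was called by DESeq2 (adjusted p = 0.00434) and without control replicate 1, and edgeR's adjusted p was 0.167 and 0.463 without knockdown replicates 1 and 2. A pseudogene, Pcna-ps2, matches the Pcna transcript over 781 bases at 99.2% identity, so reads may be shared or lost. The genes of the 5 RFC subunits, the clamp loader, had log2 fold changes from -0.42 for Rfc2 to -0.18 for Rfc3, with standard errors of 0.16 to 0.25. None of the 5 was called by edgeR or DESeq2.

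The RPA genes, for the protein that coats single-stranded DNA, were at -0.38 for Rpa1, -0.26 for Rpa3 and -0.20 for Rpa2, with 0 called by edgeR, DESeq2 or limma-voom. Rpa1 was at 255 and 250 CPM in the knockdown libraries and at 325 and 333 CPM in the controls, apart in every library, with an edgeR adjusted p of 0.253 and an unadjusted one of 0.0491.

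The genes of Okazaki fragment maturation differed from each other. Lig1, the ligase that seals the fragments, was at 295 and 258 CPM in the knockdown libraries and at 534 and 332 CPM in the controls. Control replicate 1 was far above the rest, and the log2 fold change of -0.65 (SE 0.24, edgeR adjusted p = 0.197) was -0.27 without that library. Without control replicate 2 it was -1.0, and the gene was called (edgeR adjusted p = 0.034). Fen1, the nuclease that trims the fragments, was at 141 and 127 CPM in the knockdown libraries and at 145 and 119 CPM in the controls, so its groups overlapped fully. Its log2 fold change of 0.02 was just below 0 with RLE or upper quartile scaling and in DESeq2. Fen1 shares 1909 bases of exon with Gm10143 on the opposite strand, which makes its count uncertain.

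In chromatin assembly factor 1, the chaperone that places histones H3 and H4 on new DNA, the 2 measured subunits parted. Chaf1b, on chromosome 16 from 93883900 to 93906115, was at 46.8 and 45.3 CPM in the knockdown libraries and at 112 and 88.0 CPM in the controls. The mean was 46.1 ± 1.08 CPM in the knockdown and 100.2 ± 17.3 CPM in the controls (SD, n = 2 each). The log2 fold change was -1.12 (SE 0.20), and edgeR's adjusted p was 0.0423. The call was lost without knockdown replicate 1 (edgeR adjusted p = 0.0851), without knockdown replicate 2 (0.149) and with library totals as the only scaling (0.0508). Chaf1a, the large subunit, was at 189 and 190 CPM in the knockdown libraries and at 208 and 178 CPM in the controls, with the knockdown between the controls (log2 fold change -0.03, SE 0.17, and 0.03 with library totals only). Chaf1a shares 4648 bases of exon with Ubxn6 on the opposite strand, which makes its count uncertain.

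In nucleotide supply, ribonucleotide reductase makes deoxyribonucleotides from the large subunit RRM1 and the small subunit RRM2. Rrm1 was at 187 and 170 CPM in the knockdown libraries and at 236 and 239 CPM in the controls, and Rrm2 was at 196 and 200 CPM in the knockdown libraries and at 277 and 234 CPM in the controls. Neither pair of groups overlapped, and the log2 fold changes were -0.41 (SE 0.17, edgeR adjusted p = 0.229) and -0.37 (SE 0.17, edgeR adjusted p = 0.295). Tyms, thymidylate synthase, had a log2 fold change of -0.03 (SE 0.18), or 0.02 with library totals only. DESeq2 and limma-voom called none of these 3 either.

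The fork protection complex joins TIMELESS and TIPIN, which travel with the fork. Tipin, on chromosome 9 from 64281491 to 64305422, was at 41.0 and 37.9 CPM in the knockdown libraries and at 65.8 and 93.2 CPM in the controls. The controls lay far apart from each other, and still both stood above the knockdown. The log2 fold change of -1.01 (SE 0.22) had an edgeR adjusted p of 0.0668. Tipin was called by DESeq2 (adjusted p = 0.0028) and without control replicate 1 (edgeR adjusted p = 0.0214), and edgeR's adjusted p was 0.132 and 0.255 without knockdown replicates 1 and 2. Timeless was at 203 and 192 CPM in the knockdown libraries and at 246 and 180 CPM in the controls, with overlapping groups and a log2 fold change of -0.11 (SE 0.20).

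Levels of different genes were compared per kb of the longest coding transcript in GENCODE M21. In the controls Pcna had the highest mean, at 270.0 ± 11.0 CPM per kb. Mcm7, Mcm5, Mcm3 and Mcm2 followed at 237 ± 54.1, 235 ± 37.7, 223 ± 50.2 and 192 ± 54.8 (SD, n = 2 each). The spreads of these 4 MCM levels overlapped, although Mcm2 was the lowest of the 4 in every library. Mcm4 and Mcm6 were lower, at 112 ± 15.4 and 103 ± 17.7 CPM per kb. The lowest was Orc4 at 3.69 ± 1.18 CPM per kb. In the knockdown Mcm7 had the highest mean at 198 ± 30.6 CPM per kb, with Pcna at 152 ± 18.6. Mcm7 was above Pcna in control replicate 1 too, at 275 against 262 CPM per kb.

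A ratio of partner genes within a library does not depend on how libraries are scaled, and it was taken per kb for 7 partner pairs chosen after the values were seen. The Chaf1b to Chaf1a ratio was 0.713 and 0.687 in the knockdown libraries and 1.56 and 1.43 in the controls. The Pold2 to Pold1 ratio was 0.775 and 0.799 in the knockdown libraries and 1.26 and 1.39 in the controls. The Pole2 to Pole ratio was 0.425 and 0.503 in the knockdown libraries and 0.66 and 0.661 in the controls. For Tipin to Timeless the ratio was 0.488 and 0.477 in the knockdown libraries and 0.649 and 1.25 in the controls. The Gmnn to Cdt1 ratio was 0.393 and 0.484 in the knockdown libraries and 0.558 and 1.08 in the controls. Prim2 to Prim1 went the other way, at 0.741 and 0.865 in the knockdown libraries and 0.491 and 0.530 in the controls. For Rrm2 to Rrm1 the groups overlapped, at 1.91 and 2.14 in the knockdown libraries and 2.14 and 1.79 in the controls. Which partner is higher depends on the transcript length used and is not read from these ratios. As the pairs were picked with the values in view, most of them around a member with a low fold change, the ratios are a description only. With 2 libraries in each group no exact test over libraries could pass 0.05, and none is given.

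**Figure D5:**
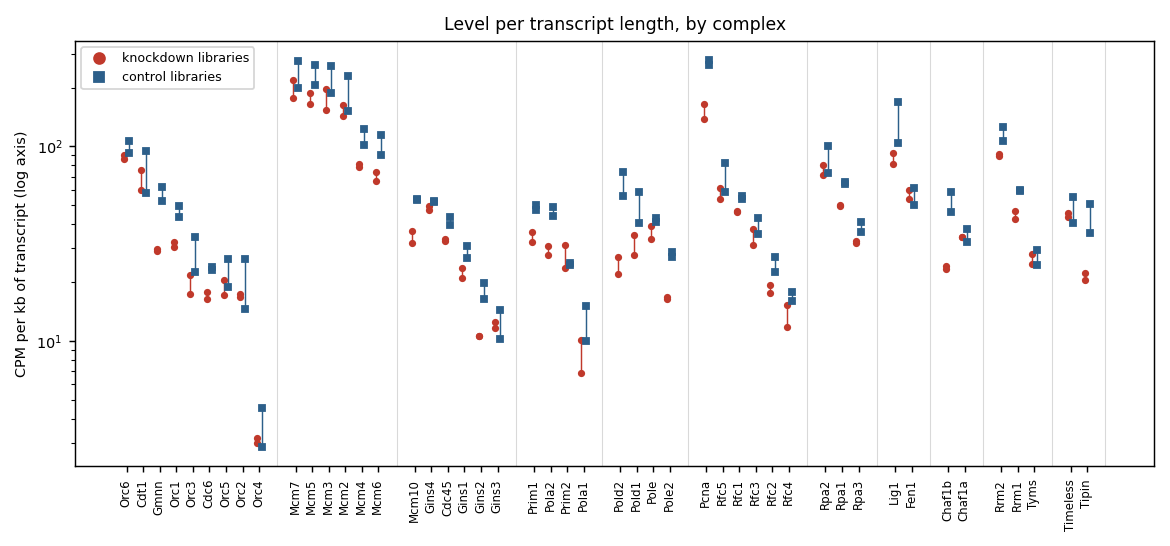
Level of each replication gene as CPM per kb of transcript on a log axis, by complex, with knockdown libraries as red circles and controls as blue squares, joined within a group. Mean control levels run from 3.69 for Orc4 to 270.0 for Pcna. In the knockdown Mcm7 has the highest mean, at 198.

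Members with and without an E2F motif in the promoter were both nearly all below 0. The 14 members with the motif had a median log2 fold change of -0.49 and 14 were below 0, and the 24 without it had a median of -0.30 and 23 were below 0. Neither called gene, Pold2 or Chaf1b, had an E2F match in its RefSeq promoters. Among tested genes outside the machinery, 57.8% of 514 with the motif were below 0, with a median of -0.06, and 49.2% of 11287 without it, with a median of 0.01. For the other 2 motifs the medians of the members went the other way. The median was -0.33 for 24 members with a CCAAT box and -0.39 for 14 without. It was -0.32 for 5 members with the CHR element and -0.37 for 33 without. These are descriptions of exact letters in a window and carry no test.

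A second list of 51 replication genes outside the 47 held firing factors, other polymerase subunits, alternative clamp loaders, histone chaperones, enzymes of nucleotide supply and the E2F factors. None was called by edgeR or limma-voom, and DESeq2 called 5, all lower (9.80%, against its background of 3.24%). At an unadjusted p below 0.05, 13 were lower (25.5%, against 8.58% of all tested genes) and 2 higher (3.92%, against 11%). Of the 51, 43 were below 0 (84.3%, against 49.5%), and the median was -0.27. Both knockdown libraries lay below both controls in 26 (51%, against 24.6%) and above both in 4, against 27.3% of all tested genes. Asf1a and E2f6, the 2 that were higher at an unadjusted edgeR p below 0.05, had log2 fold changes of 0.87 and 0.67. Of the 51, the 4 with the smallest p were Tk1, Fbxo5, Dna2 and Wdhd1. Tk1, thymidine kinase of the salvage route, was at 25.8 and 30.6 CPM in the knockdown libraries and at 82.7 and 54.2 CPM in the controls, a log2 fold change of -1.28 (SE 0.25, edgeR adjusted p = 0.0539). Fbxo5, which encodes EMI1, an inhibitor of the anaphase-promoting complex, was at 62.1 and 60.1 CPM in the knockdown libraries and at 104 and 103 CPM in the controls (log2 fold change -0.76, edgeR adjusted p = 0.0694). Dna2, a nuclease of fragment maturation, and Wdhd1, which links the helicase to polymerase alpha, were at -0.73 and -0.69 (edgeR adjusted p = 0.0922 and 0.0941).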

How the data were processed

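The deposited values are raw counts of reads by gene for 4 libraries, not normalized by the authors. The submitters' processing notes list cutadapt, HISAT2, featureCounts and mm10. For versions, annotation, strand setting and multiply mapped reads, nothing is given in the sources used here. These bear on the 18 members whose exons overlap another gene in GENCODE M21 (Orc1, Orc2, Orc4, Orc5, Orc6, Mcm7, Cdc45, Gins2, Pole, Pole2, Rfc2, Rfc4, Rfc5, Rpa1, Fen1, Lig1, Chaf1a and Timeless), whose counts are uncertain, and on the 7 whose transcript matches a gene elsewhere over at least 150 bases at 95% identity (blastn 2.17.0): Cdc6, Mcm6, Mcm7, Pcna, Rfc5, Rrm2 and Tyms.

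From these counts, 92 spike-in rows with 0 counts were left out. filterByExpr of edgeR 4.0.16 in R 4.3.3 kept 16209 genes, with 19767 removed. TMM scaling was followed by edgeR's quasi-likelihood test on group alone and Benjamini-Hochberg adjustment over all tested genes. Fold changes are knockdown over control on the log2 scale, with their size over the square root of F as standard error. The number of libraries, more than depth, limits precision. The fit was tested on simulated data. Members, lists, motifs and alternatives were chosen with earlier results of these data known. All 47 members are named. Of the second list those called or, up to 4, those of smallest p are named, with Pold3, Pold4, Pole3, Pole4, Asf1a and E2f6 added. The 15 alternatives were 3 scalings, 2 filters, DESeq2 1.42.0, limma-voom (limma 3.58.1), an adjusted p of 0.01, edgeR's likelihood ratio test, a block for replicate number, omission of the 50 most abundant and 13 mitochondrial genes, and omission of each library. Where a group had 1 library left, its spread was taken from the other group.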

Additional observations from a re-analysis of the deposited data

How the results depend on the processing

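The median log2 fold change of the 47 genes was below 0 in each of the 15 alternatives, from -0.31 with library totals only to -0.52 without control replicate 2, and lay between -0.52 and -0.33 when 1 library was left out. The count of called members moved more, from 0 at an adjusted p of 0.01 and without knockdown replicate 2 to 11 without a filter on low counts, and all called members were lower in each setting. It was 1 with library totals only, 9 in DESeq2, 9 in the likelihood ratio test and 4 with the replicate block, which added Gmnn and Tipin, and 0 to 5 when 1 library was left out. Calls over all genes moved alongside, from 232 to 1717 without a filter, 1078 in DESeq2, 1310 in the likelihood ratio test, 656 with the replicate block and 17 at an adjusted p of 0.01, and from 153 to 587 when 1 library was left out. Without a filter, 2.72% of 26525 tested genes were called lower, and in DESeq2 3.24% of 14919. Of 16209 tested genes, the share called lower was 3.17% in the likelihood ratio test and 1.41% with the replicate block. It was 0.352% with library totals only and 0.037% at an adjusted p of 0.01. The cause of these shifts in the calls was not tested. Whether the shared replicate numbers of the titles mark a pairing cannot be told from these values. Deviations of same-numbered libraries correlated at -0.0568 across genes, but this cannot exclude a pairing that acts on part of the genes.

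Of 765 comparisons of a gene's value with an alternative, 695 kept direction and side of the threshold, 43 became called, 6 lost a call and 21 changed sign, none of them called. With RLE scaling Fen1 was at -0.0034, with upper quartile scaling at -0.0098 and with DESeq2 at -0.013. With library totals only Gins3 was at 0.012, Chaf1a at 0.027 and Tyms at 0.025. The other changes of sign came from leaving out 1 library, where the log2 fold change ranged from -0.61 to 0.18 for Orc2, from -0.55 to 0.061 for Orc4, from -0.52 to 0.24 for Cdt1, from -0.64 to 8e-04 for Mcm2, from -0.26 to 0.19 for Gins3 and from -0.057 to 0.33 for Prim2. It ranged from -0.46 to 0.047 for Rpa2, from -0.16 to 0.16 for Fen1, from -0.18 to 0.090 for Chaf1a, from -0.20 to 0.11 for Tyms and from -0.36 to 0.13 for Timeless.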
